A study of Oryza sativa Japonica Group with 16 samples.

Results

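The LR initials of rice plants that overexpress the DNA methylase DRM2 were compared with wild type LR initials for methylation in the CHH context, in which neither of the next bases after the cytosine is a G. The members are all windows of the deposited LR comparison between the wild type and *OxDRM2*, 476232 windows out of 2093419 in the deposited tables as read. Each member is a window of 1000 bp, windows start every 100 bp, and the value of a window is its difference in CHH methylation in percentage points. Positive values were taken to mean more methylation in *OxDRM2* and are called gains, and negative values losses. The tables themselves do not state the order of subtraction.

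BS-seq reads methylated cytosines as those that survive bisulfite treatment of the DNA. The *OxDRM2* LR group has 2 BS-seq libraries of stage 1 initials, which are clusters of cells without visible differentiation, cut out of root sections by laser. These plants carry DRM2 behind a ubiquitin promoter, which acts in most tissues, in the *japonica* background ZH11 that the wild type shares, and the sources used here do not state which transgenic line was sampled. For side by side values, *OxDRM2* CR and the LR initials of *ta2*, a point mutant of the DNA demethylase DNG702, each have 2 BS-seq libraries of stage 1 as well.

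CHH methylation differs from the symmetric contexts because the opposite strand holds no methylated partner to copy after replication. It is therefore written again in each cell generation, in large part by DRM2, which small RNAs guide to transposons in the pathway known as RNA-directed DNA methylation. A separate enzyme family, the chromomethylases, writes CHH methylation in compact heterochromatin, and DNA glycosylases such as DNG702 remove methylated cytosines. Short transposons near genes are a well known target of DRM2 in cereals, whereas the regions around the centromeres hold long transposons and satellite repeats.

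The deposited table gives 1 value per window with the replicates already joined, so no difference had a replicate error and no test across replicates could be made. Neither the methylation level of each genotype nor the number of sequenced cytosines per window was available, and the depth behind a window is unknown. The wild type LR libraries are not among the samples analysed here, and genotype and library set cannot be told apart. In such dissected samples, a change of methylation within cells and a change in the mix of cells also cannot be told apart. The tables hold methylation only, so the labelled tissue could not be checked against marker genes.

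Gains made up nearly the whole of the LR comparison and reached every chromosome. There were 470896 gain windows, 98.9% of the listed windows and 12.6% of the 3731909 window positions on the 12 chromosomes. Loss windows numbered 5336, or 0.143% of positions. The median gain was 20.7 points, with quartiles of 14.3 and 32.1 points, and the median loss was -18.4 points, with quartiles of -29.2 and -13.4 points. A total of 37817 gains exceeded 50 points, which is 8.03% of gains and 1.01% of positions, and 414 losses went beyond 50 points, which is 7.76% of losses and 0.0111% of positions. Beyond 80 points lay 0.899% of gains and 2.01% of losses. A gain of 100 points, the largest possible, was listed for 3 windows, and the deepest loss was -99.1 points.

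Along the chromosomes, gains were spread evenly rather than gathered in hot spots. In 368 bins of 1 Mb, gains occupied a median of 12.9% of positions with an SD of 2.39 over the bins, and 304 bins lay between 10 and 16%. All 368 bins held gains. The share ran from 10.3% of positions on chromosome 11 to 13.7% on chromosome 10, and chromosome 3 was close to the latter at 13.66%. Between arms, the lowest share was 9.42% on the long arm of chromosome 11 and the highest 14.08% on the long arm of chromosome 10. Neighbours in the order of chromosomes differed by little, and without replicate values their order has no error attached.

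A few bins stood apart. The bin from 15 to 16 Mb on chromosome 4, on the long arm, held gains at only 2.62% of positions, and the bin from 13 to 14 Mb on chromosome 9 held the most, 18.01%. The other 5 bins under 6% were on chromosomes 8, 11 and 12. They included the bin from 12 to 13 Mb on chromosome 11, beside the centromere, with gains at 4.30% of positions, and the last full bin of chromosome 11, at 4.07%. Part of such low shares is sequence with no listed window at all. The longest stretch without a gain or a loss on chromosome 4, chr4:14846001-15149800, measured 303.8 kb and lay only partly in the bin from 15 to 16 Mb. Inside that bin, chr4:15164401-15340000, 175.6 kb, was the longest stretch of chromosome 4 with no window in any table. The longest stretches without a gain or a loss on chromosomes 11, 12 and 8 measured 201.6, 195.0 and 176.8 kb. Whether these stretches had too few mapped reads to be tested is not given in the tables.

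**Figure D1:**
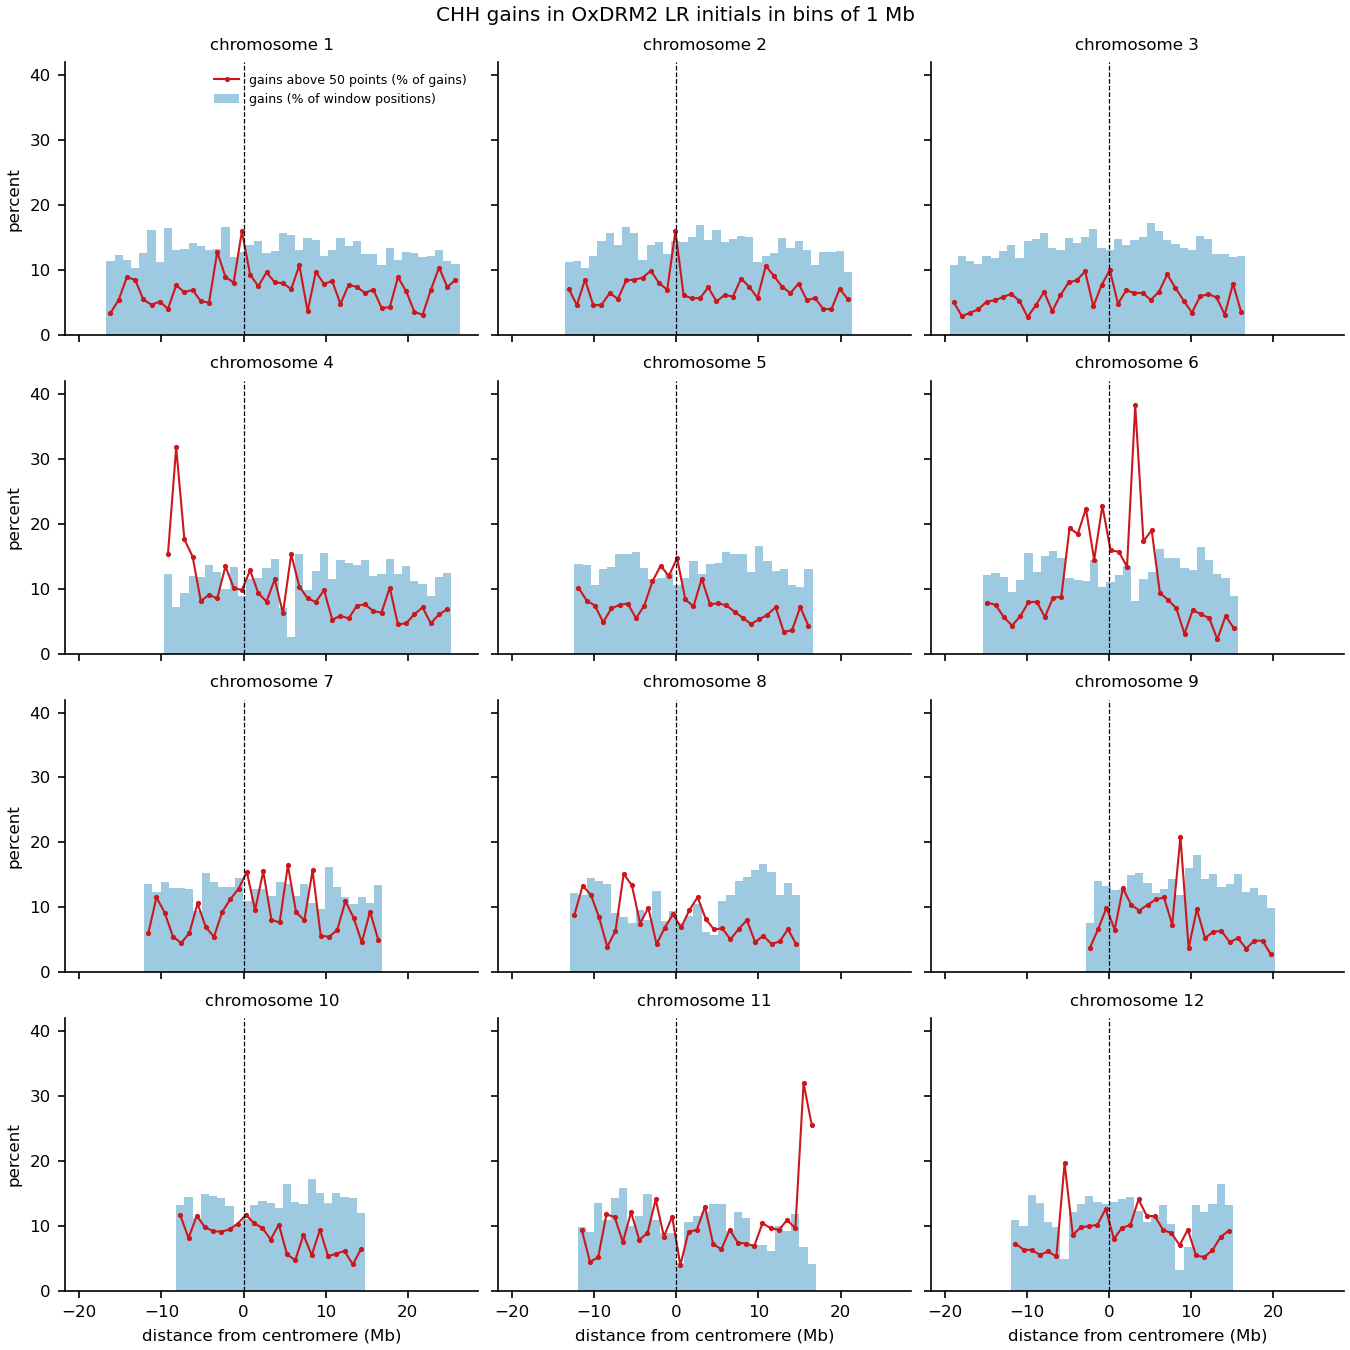
Each panel is a chromosome cut into bins of 1 Mb, placed by the distance of the bin centre from the centromere (dashed line, Mb). Bars give gain windows as a percent of window positions and stay near 12.9% in most bins, and the red line gives the percent of those gains above 50 points, which reaches 38.3% on chromosome 6, 32.0% on chromosome 11 and 31.7% on chromosome 4.

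The number of gains changed little from the centromere to the chromosome ends. Pericentromeric zones, taken as 2 Mb on each side of the centromere, had gains at 12.01% of positions. The interior of the arms had 12.9%, and the distal zones, the outer 2 Mb at each end, had 11.4%. The distal share was below the interior share on 10 of 12 chromosomes, and the pericentromeric share was above the interior share on 3 of 12. Chromosomes 8 and 11 had the lowest pericentromeric shares, 8.38% and 8.18%. Losses occupied 0.115% of pericentromeric, 0.149% of interior and 0.138% of distal positions.

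With the chromosomes pooled, the share of large gains, in contrast to the number of gains, was higher near the centromere. In pericentromeric zones, 10.4% of gains exceeded 50 points, against 7.70% in the interior and 7.70% in the distal zones. The pericentromeric share exceeded the interior share on 11 of 12 chromosomes, chromosome 11 being the exception with 8.86% against 9.20%. It exceeded the distal share on 10 of 12. Chromosomes 4 and 11 had higher distal shares, 12.97% against 10.8% and 15.1% against 8.86%. Chromosome 6 had the highest pericentromeric share, 17.3%, and without this chromosome the pericentromeric share was 9.77% against 7.53% elsewhere. Within 1 Mb of the centromere, 11.2% of gains exceeded 50 points. The share was 8.88% between 4 and 5 Mb and 6.54% between 9 and 10 Mb, and it was between 4.99 and 7.34% farther out. The innermost step pools 24 segments and the step from 17 to 18 Mb only 5, so the mix of chromosomes changes outward. The median gain moved much less, from 21.2 points within 1 Mb of the centromere to 20.2 points between 9 and 10 Mb, so the decline lay in the upper tail of the gains.

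**Figure D2:**
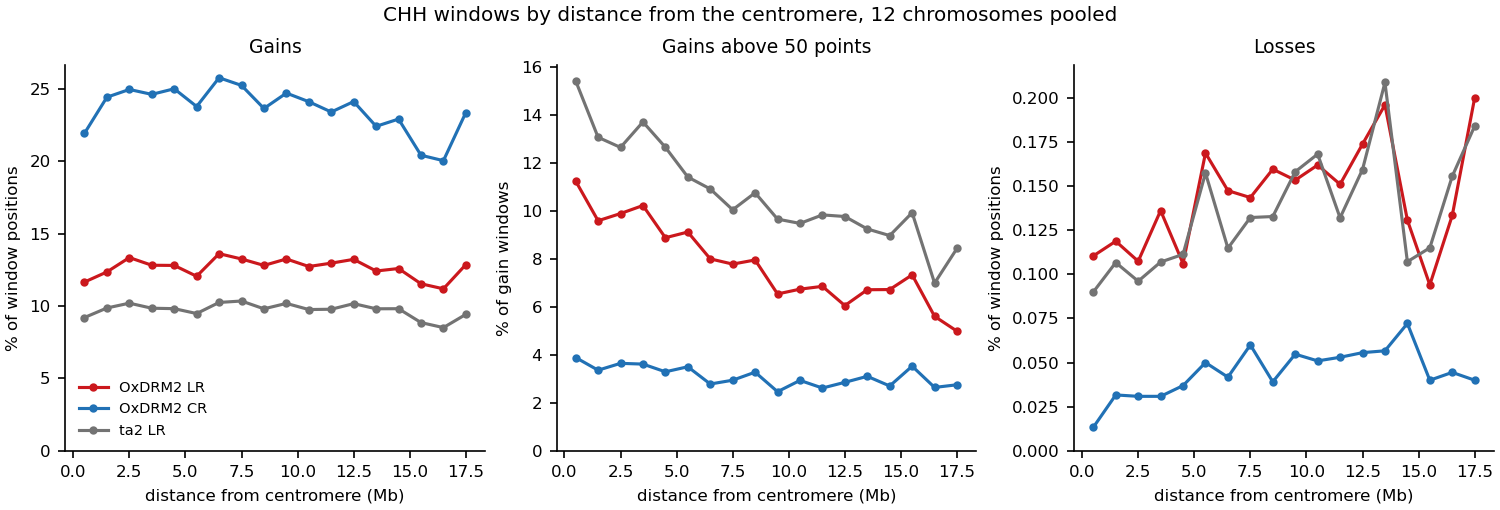
The 12 chromosomes were pooled in steps of 1 Mb from the centromere (x axis, Mb), using steps that lie wholly on an arm. Gains (left, percent of window positions) were nearly level in *OxDRM2* LR, gains above 50 points (middle, percent of gains) fell from 11.2% to 4.99%, and losses (right, percent of positions) lay between 0.0940% and 0.200% with no steady trend.

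The other comparisons are given side by side. Their shares of positions also count positions where no window could be called. The paper lists higher coverage for *OxDRM2* CR than for *OxDRM2* LR, and lower coverage for *ta2* LR than for both. The listed depth of the *OxDRM2* libraries is itself uncertain. Whether the shares differ between comparisons because of depth was not tested. In *OxDRM2* CR, gains covered 23.7% of positions, with 23.2% in pericentromeric, 24.3% in interior and 20.6% in distal zones, and 3.61%, 2.99% and 3.32% of them exceeded 50 points. The median gain in *OxDRM2* CR was 16.5 points in pericentromeric, 17.6 points in interior and 17.9 points in distal zones, an order opposite to that of *OxDRM2* LR, where it was 21.2, 20.6 and 20.5 points. In *ta2* LR, gains covered 9.73% of positions, with 9.54%, 9.92% and 8.85% in the same zones, and 14.2%, 10.5% and 10.4% of them exceeded 50 points. The *ta2* LR and *OxDRM2* LR comparisons use the same wild type libraries, so they are not independent.

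In some segments a large part of the gains exceeded 50 points. Over 15% of gains did so in 24 bins, of which 9 were on chromosome 6 with their centres at most 5.20 Mb from the centromere. There, the bin from 18 to 19 Mb was the highest at 38.3%, or 311 windows. Gains were sparse in that bin, at 8.13% of positions, but their median was 37.9 points. Farther from the centromere, the bin from 27 to 28 Mb on chromosome 11 reached 32.0%, and the bin from 1 to 2 Mb on chromosome 4, on the short arm, reached 31.7%. The last 2 Mb of chromosome 11 combined few gains, 5.46% of positions, with many large ones, 29.1% of gains. These segments had high shares in the other tables too. In the chromosome 6 bin, 17.98% of the gains of *OxDRM2* CR and 37.0% of those of *ta2* LR exceeded 50 points, against medians over all bins of 2.78% and 10.4%. The short arm of chromosome 4 had 12.8% of its gains above 50 points, the highest share of the 24 arms, and the long arm of chromosome 3 the lowest, 5.66% (chromosome 3 has its longer arm on the left).

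Neighbouring gain windows joined into short blocks. Windows that overlap or touch formed 53791 merged gain regions, which spanned 105.0 Mb or 28.1% of the sequence. The median region was 1900 bp long with 8 windows, and the quartiles of length were 1300 and 2200 bp. Lengths and spans of merged regions, here and below, include whole windows and are at least 1000 bp. The stretch whose methylation differed can be shorter. Long regions were few. Regions longer than 5000 bp numbered 737, or 1.37%, and 9 exceeded 10 kb. The median gap between gain regions was 3100 bp, with quartiles of 1200 and 6600 bp, and 19.97% of gaps were under 1000 bp.

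The distribution of windows per region had a sharp peak at 10. Of the gain regions, 7734 or 14.4% held exactly 10 windows, and 7011 of these were unbroken runs of 1900 bp, against 1781 unbroken runs of 9 windows and 2325 of 11. In such a run, the 10 successive windows of 1000 bp have just 100 bp in common. In these unbroken runs, the mean gain had a median of 24.2 points, and the highest and lowest window of a run differed by a median of 12.5 points. The 10 values were almost level, within 5 points, in 963 runs or 13.7%. Regions of a single window made up 12.1% of gain regions and had a median gain of 12.6 points, near the listing limit of 10 points. Regions of 21 or more windows made up 5.99% of regions but held 18.6% of gain windows, with a median mean gain of 25.2 points.

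**Figure D3:**
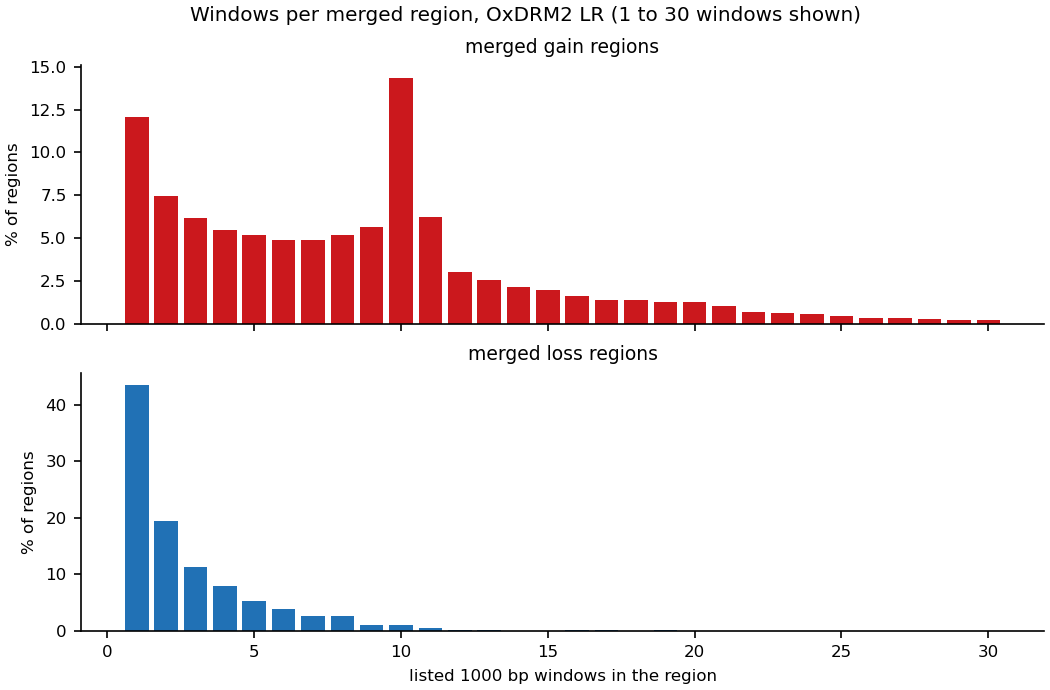
Merged regions are sorted by the number of listed windows they hold (x axis), as a percent of the 53791 gain regions (top) and the 1911 loss regions (bottom). The gain regions peak at 10 windows with 14.4%, whereas 43.5% of the loss regions hold a single window and 0.994% hold 10.

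Loss regions were fewer, shorter and farther apart. The 5336 loss windows formed 1911 merged regions, which spanned 2.33 Mb or 0.624% of the sequence, with a median length of 1100 bp and a median gap of 127700 bp. Single windows made up 831 of them, or 43.5%, and only 19 held 10 windows. A total of 907 loss regions, 47.5%, overlapped a gain region, and whether this differs from what the many gain regions would give at any position was not tested. Only 8 of the 368 bins held no loss.

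The large losses were few. The 414 windows beyond -50 points formed 130 regions, of which 72 were single windows, and the 10 largest of these regions, 7.69% of them, held 40.1% of the windows. The gains above 50 points formed 8415 regions, and the 10 largest, 0.119% of them, held 0.613% of the windows. Relative to an equal share per region, these are 5.21 times for losses and 5.16 times for gains. The ratios cannot be compared, because the 10 largest are 7.69% of the loss regions but 0.119% of the gain regions. Whether large losses and large gains differ in concentration was not tested. Chromosome 9 had 77 of the large loss windows, chromosomes 1 and 4 had 58 each, and chromosome 10 had 13. No large loss was listed in 267 of the 368 bins.

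The strongest gains were short blocks of overlapping windows with differences near 100 points. Neighbouring windows share most of their sequence, and the sequenced cytosines behind them are unknown. In some of the regions below, such as chr6:19297101-19299000, successive windows listed the very same value, 95.9438 points. Such repeats arise when shifted windows hold the same sequenced cytosines, so the measured stretch can be much shorter than the block. How much of each block changed was not tested. Among regions of at least 10 windows, the 10 with the highest mean gain had means from 95.2 to 97.7 points, each with 10 or 11 windows, and the windows of a region differed by 0.674 to 4.44 points. The highest was chr1:4932401-4934300 (RGAP version 7.0, as for all positions), with a mean of 97.7 points and windows from 95.8 to 98.5 points. A difference near 100 points can only be reached from a wild type level near 0. Of these 10 regions, 6 were on chromosome 6, within 4.14 Mb of its centromere. They were chr6:16713401-16715300 (96.8 points), chr6:14034401-14036400 (96.5), chr6:13023601-13025500 (96.4), chr6:11155201-11157100 (96.2), chr6:19297101-19299000 (95.9) and chr6:18960601-18962500 (95.3). Chromosome 7 had chr7:17912501-17914400 and chr7:16900601-16902500, both at 96.2 points. The last was chr12:10306401-10308400 at 95.2 points over 11 windows, which was listed in none of the other tables. In *OxDRM2* CR, 7 of the 10 were also gains, with means over their windows from 62.8 points at chr6:16713401-16715300 to 97.8 points at chr6:18960601-18962500. Gains covered 23.7% of all positions in CR, and 82.0% of LR gain windows of 80 to 100 points were CR gains. In *ta2* LR, where gains covered 9.73% of positions, 8 of the 10 were gains. That comparison uses the same wild type LR libraries, so this count is not independent.

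The strongest losses came from 46 loss regions of at least 10 windows, against 23210 such gain regions, and the shapes of both sets are not compared because means close to 100 points leave little room for differences within a region. The 10 regions with the lowest mean had means from -90.3 to -55.6 points, 10 to 37 windows, and differences within a region of 23.1 to 78.1 points. The lowest was chr1:39492301-39496500, with 28 windows, a mean of -90.3 points and a range from -95.2 to -37.2 points. It was followed by chr9:10924901-10927600 at -76.7 points and chr2:23480501-23483200 at -69.4 points. The longest loss region, chr4:11315801-11322100, spanned 6300 bp with 37 windows at -68.5 points, with windows as shallow as -23.4 points between deeper ones. On chromosome 9, chr9:7925201-7928100 at -67.1 points and chr9:7928201-7933000 at -62.7 points lay 100 bp apart, with 19 and 26 windows. The others were chr11:14446701-14448700 at -64.5 points, which held the deepest window of all at -99.1 points, chr12:20647901-20650100 at -63.3, chr12:4196601-4198500 at -56.8 and chr6:9353201-9357700 at -55.6 points.

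None of these 10 loss regions was a loss in *OxDRM2* CR, where losses covered 0.0445% of positions, and 3 of them held CR gain windows. All 10 held loss windows in *ta2* LR, where losses covered 0.133% of positions. At chr1:39492301-39496500, the mean over 25 listed windows of *ta2* LR was -86.7 points, and at chr2:23480501-23483200 a single *ta2* LR window was listed, at -69.2 points. The wild type LR libraries enter both comparisons, and their part in these losses was not tested.

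**Figure D4:**
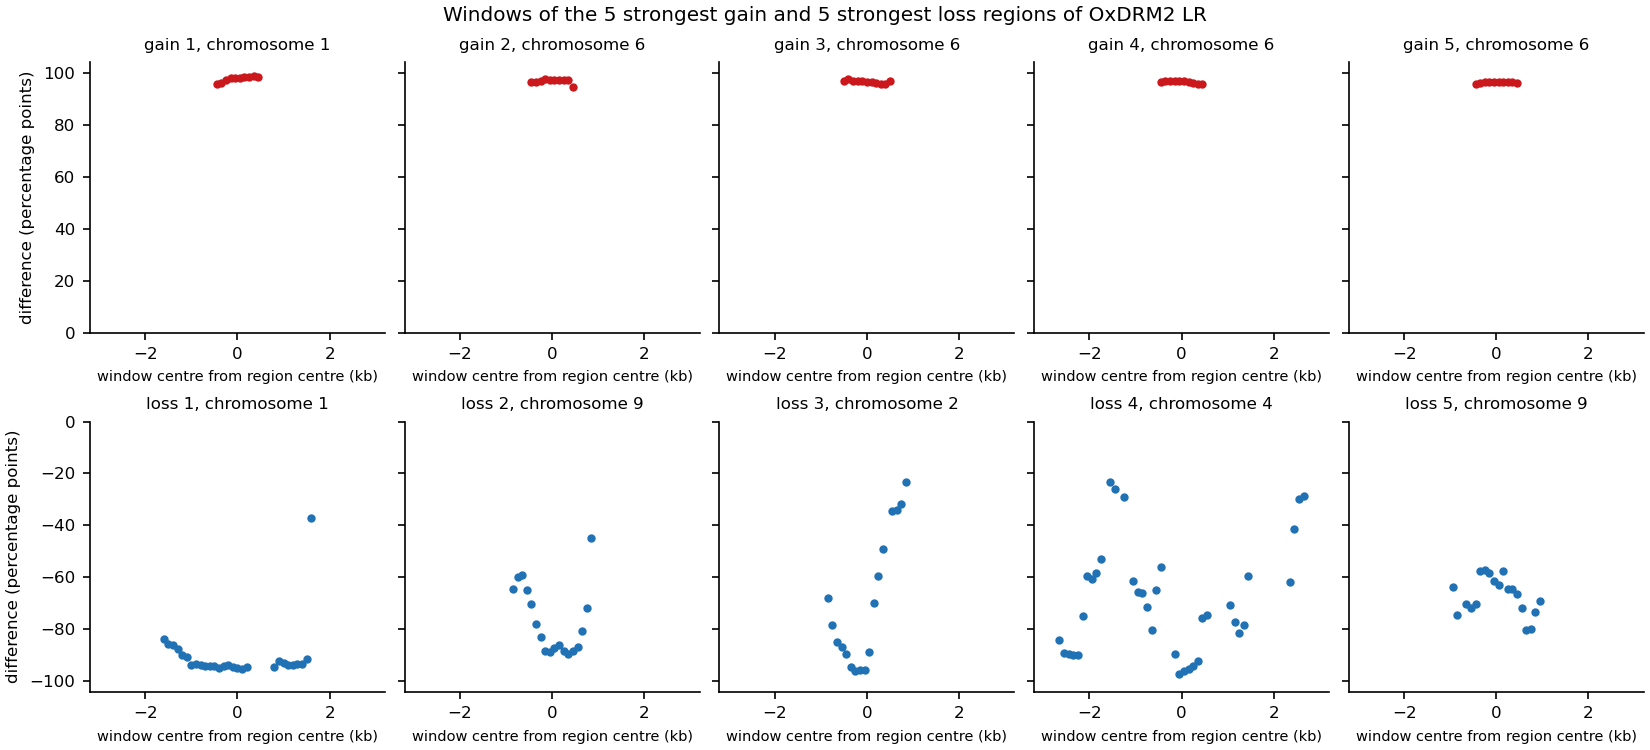
Points are the single windows of the 5 gain regions (top) and the 5 loss regions (bottom) of largest mean, by the distance of the window centre from the region centre (kb), with the difference in percentage points on the y axis. The gain regions shown hold 10 or 11 windows, all above 94 points, and the loss region on chromosome 4 holds 37 windows from -97.0 to -23.4 points.

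The longest gain regions were moderate in size. The longest was chr3:29632301-29645700, 13400 bp with 90 windows and a mean of 26.1 points, within a range of 10.8 to 65.8 points. It was followed by chr6:8839701-8852200 (12500 bp, 18.1 points), chr3:5015201-5027200 (12000 bp, 25.9 points), chr10:21094501-21105900 (11400 bp, 20.5 points) and chr5:18698501-18709200 (10700 bp, 21.9 points). These regions lay 6.30 to 14.4 Mb from the centromere. All 5 held gains in *OxDRM2* CR as well, where chr3:29632301-29645700 had 90 listed windows with a mean of 23.1 points. Gains covered 23.7% of all positions in CR, so holding some gain over such a length is not particular to these regions.

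Most LR gains of the overexpressor were found again in its CR initials, a comparison made with other wild type libraries. The CR share of all positions also counts positions where no window could be called. Of the LR gain windows, 341523 had the same window listed as a gain in *OxDRM2* CR, which is 72.5% of the LR gains and 38.6% of the CR gains, and gains covered 23.7% of all positions in CR. The shared part was 62.3% for LR gains of 10 to 20 points, 79.4% for 20 to 30 points, 83.8% for 30 to 50 points, 84.7% for 50 to 80 points and 82.0% for 80 to 100 points. The difference between LR and CR at shared windows varied with the size of the LR gain. The LR gain was larger in 58.5% of them, and the median of LR minus CR was 1.68 points, with quartiles of -3.57 and 8.51 points. Shared LR gains of 10 to 20 points had medians of 14.6 points in LR and 16.3 points in CR, those of 50 to 80 points 58.6 and 43.6 points, and those of 80 to 100 points 86.3 and 72.2 points. Grouping by the LR value itself favours this order, so it is a description. The LR gains that were not listed as gains in CR, 129373 windows, had a median of 16.02 points.

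LR losses were more often gains than losses in CR, as were window positions as a whole. The shares of all positions include those where no window could be called, so an excess over them was not tested. Of 5336 loss windows, 29 or 0.543% were losses in *OxDRM2* CR, against 0.0445% of all positions, and 2002 or 37.5% were gains there, against 23.7% of all positions. The share of LR losses that were CR gains was 40.3% for losses of 10 to 20 points, 26.4% for 50 to 80 points and 4.67% for 80 to 100 points. In the opposite direction, 92 LR gain windows were CR losses.

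**Figure D5:**
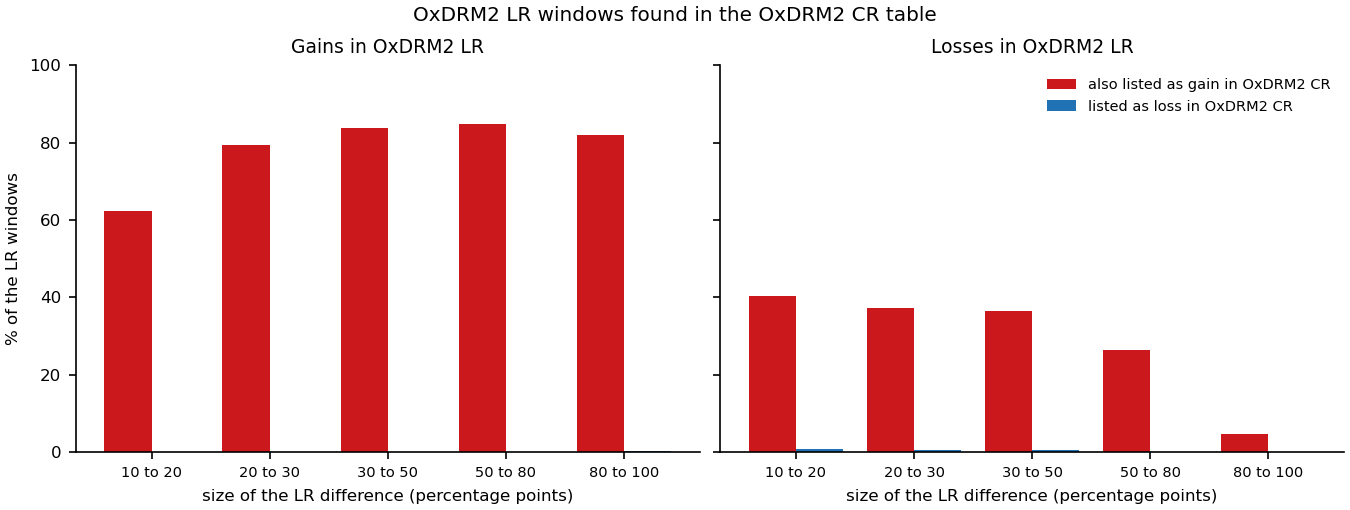
Bars give the percent of *OxDRM2* LR windows, by the size of their LR difference (percentage points), whose window was listed as a gain (red) or as a loss (blue) in *OxDRM2* CR. For LR gains the red bars run from 62.3% to 84.7%, and for LR losses they go from 40.3% down to 4.67%, with blue bars of at most 0.680%.

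Promoter positions were at hand for only a couple of genes. At the promoter bin of *RL9* (LOC_Os02g57670, chr2:35319451-35319650), annotated as a putative ribosomal protein L9, 8 windows were gains from 12.5 to 59.7 points, with a mean of 27.6 points. In *OxDRM2* CR, 7 windows there had a mean of 26.1 points, and in *ta2* LR 6 windows had a mean of 31.8 points. At the promoter bin of *RDR2* (LOC_Os04g39160, chr4:23283951-23284150), the RNA-dependent RNA polymerase that makes the double-stranded precursors of the small RNAs guiding DRM2, 9 windows gained 12.6 to 16.4 points, with a mean of 13.9 points. The means there were 11.2 points over 7 windows in *OxDRM2* CR and 10.2 points over 2 windows in *ta2* LR. Both bins thus lay in gains, those at *RDR2* near the listing limit. Merged gain regions spanned 28.1% of all sequence, so gains at both bins are not particular to these promoters. The paper picked its promoter bin for each gene by the highest correlation of CHH methylation with transcription.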

How the data were processed

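BS-seq of laser-dissected LR and CR initials of stage 1 had 2 replicates per mutant group. The authors mapped clean reads to the rice genome RGAP version 7.0 with BS-Seeker2 2.1.8 and kept uniquely mapped reads without duplicates. Their read table lists far fewer such reads for the second than for the first *OxDRM2* LR library. For the first of these, and for both *OxDRM2* CR libraries, the listed mapped ratio does not match the listed read counts. The depth of these libraries is therefore uncertain. The labels name more than 1 library kit.

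The authors' deposited tables list per window how far CHH methylation differs, in percentage points, beside a q-value and a p-value, with replicates joined. Windows were checked to be 1000 bp wide, on starts 100 bp apart, with differences of at least 10 points and a q-value under 0.01. The methods describe windows of another width, and which tool made these tables is not stated, although the submitters' processing notes name methylKit without a role. The columns are the authors' own comparison, and no test was added. In 269803 windows the q-value was below the p-value. The copy of the *ta2* CR table that was read stops within chromosome 8, and its remainder was not used here.

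The positions a window can take, each 100 bp along a chromosome as far as its final listed window, were the denominator, also where no window could be called. Overlapping or touching windows were merged. Centromere positions are approximate, to 0.1 Mb. The 10 gain and 10 loss regions of largest mean among regions of at least 10 windows, the 5 longest gain regions and genes with a promoter position were named. Members and lists were chosen with earlier results of these data known. Alternatives were other limits on the difference, zone widths, centromere positions, merging distances and windows that do not overlap. Merging and the counting of windows per zone were tested on simulated data. Scripts ran under Python 3.11.15 with pandas 2.3.3 and numpy 2.4.6. Sequences and annotation of RGAP version 7.0 were not used here.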

Additional observations from a re-analysis of the deposited data

How the results depend on the processing

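No paired analysis was possible because replicates were joined before deposit. For the same reason no replicate could be left out. Of 82 alternatives, 50 moved a value beyond its counting interval or a count by over 1.5 times. No reversed direction could occur, because each value was a count, a share, a length, a chromosome or a median within gains or losses alone. The direction of the results was therefore not tested. Intervals cover counting of windows only, and overlapping windows are not independent, so that many of these moves are small. Most follow from the construction of the alternative, such as fewer windows under a higher limit.

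Gain windows numbered 245839 above 20 points, 133555 above 30 points, 37817 above 50 points and 47080 without overlap. Loss windows numbered 2396, 1273, 414 and 528 under the same settings. With 1 value per merged region, the median gain was 19.3 and the median loss -16.6 points. The median loss was -19.4 points both without overlap (-19.42) and with a q-value under 1e-10 (-19.44).

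Pericentromeric gains were 11.7% of positions for zones of 1 Mb, 12.4% for 3 Mb, 12.2% with the centromere 0.5 Mb to the right, 3.72% above 30 points and 26.8% as base pairs covered. Pericentromeric losses were 0.0998% with the centromere 0.5 Mb to the left, 0.0325% above 30 points and 0.503% as base pairs. Distal gains were 11.1% for zones of 1 Mb, 11.7% for 3 Mb, 3.16% above 30 points and 25.7% as base pairs. Distal losses were 0.0368% above 30 points, 0.118% without overlap and 0.613% as base pairs.

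Gain regions numbered 81214 when only windows with starts 100 bp apart were joined and 24018 above 30 points. Their median length was 1400 bp in both settings and 1600 bp above 20 points. Loss regions numbered 872 above 20 and 435 above 30 points, and their median length was 1000 bp when only windows with starts 100 bp apart were joined. The chromosome with the highest gain share, chromosome 10, gave way to chromosome 3 by base pairs covered (30.12%) and to chromosome 6 above 30 points (4.05%). Chromosome 11 was lowest in both.

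The share of LR gains that were also CR gains was 58.3% above 20 points in both, 46.4% above 30 points in both and 81.6% within 200 bp.

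The following alternatives were chosen after seeing the data. The share of large gains in pericentromeric zones and outside them, 10.4% and 7.70%, was 18.2% and 14.9% for a limit of 40 points, and 6.01% and 3.75% for 60 points. It was 11.2% and 7.83% for zones of 1 Mb and 9.77% and 7.53% without chromosome 6. For zones of 3 Mb, it was 10.2% and 7.53%. The pericentromeric share was the higher one under each of these 5 settings. Regions of exactly 10 windows were 12.7% of gain regions above 30 points.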

Other observations

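The first and last 10 kb of the chromosomes differed from end to end in *OxDRM2* LR. The far end was set at the final listed window of any comparison, whereas the start was the first base of the chromosome. Listed windows at far ends are thus favoured by construction, and the 2 kinds of end are not measured alike. The starts of chromosomes 7 and 8 held 7 and 8 gain windows with medians of 86.8 and 86.8 points, and the start of chromosome 4 had gains up to 96.8 points around a median of 15.3 points. The start of chromosome 9 held 7 losses with a median of -78.3 points and no gain. At the far ends, the medians of gains ran from 13.9 points on chromosome 6 to 43.3 points on chromosome 10, among the 11 chromosomes with gains there. On chromosomes 1, 2, 4 and 10 the far end had the higher median of the 2 ends, and on chromosomes 7 and 8 the start. No listed window lay in the first 10 kb of chromosomes 3, 5, 6, 11 and 12.

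The first 2 Mb of chromosomes 11 and 12, which share a large duplicated segment in rice, are given side by side. Gains covered 9.40% of positions on chromosome 11 and 10.5% on chromosome 12, with medians of 21.2 and 21.1 points, and 23 and 10 loss windows were listed.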
